A study of Mus musculus with 30 samples.

Results

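Cxcr3, Cxcr6 and Ccr2 encode receptors for inflammatory chemokines. They were taken from the custom glycan array because the RefSeq accession of a probe set maps to each of them. They are 3 of the 374 named genes of the series and hold 4 of its 746 tested probe sets. Ccr2 has 2 probe sets, and the brighter one represents it here. The name of that brighter probe set carries a suffix (_s_at) that marks probes shared between transcripts. Spleen cells came from male C57Bl/6 mice aged 6 to 10 weeks. The 30 arrays form 10 groups of 3. B cells were cultured with anti-IgM at 10 µg/ml and IL-4 at 10 ng/ml, and were taken fresh. CD8 T cells and CD4 T cells were each cultured with IL-2 at 4 ng/ml, with IL-2 at 4 ng/ml and IL-4 at 10 ng/ml, or with IL-2 at 4 ng/ml and IL-12 at 5 ng/ml, and were each taken fresh. Of the arrays, 4 state 72 hours of culture, and any stimulus of the T cells beyond the cytokines is not given in the sources used here. No group was cultured without a cytokine, so culture and its agents cannot be told apart. Per the labels, the lymphocytes of the cultured groups were isolated after the spleen cells had been in culture, so other spleen cells were present with them there. The labels do not say whether the arrays of one group stem from different mice or cultures. The p-values therefore cover only the array-to-array spread, which could be technical.

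Chemokine receptors are proteins that span the membrane and direct cells along gradients of small secreted ligands. Cxcr3 binds the interferon-induced chemokines Cxcl9, Cxcl10 and Cxcl11, and is a textbook receptor of type 1 helper cells and of effector and memory CD8 T cells. Cxcr6 binds Cxcl16, a chemokine that exists in a membrane-bound form, and is known from effector, tissue-resident and natural killer T cells. Ccr2 binds Ccl2 and related ligands, and is known for the exit of monocytes from bone marrow and from effector and memory T cells. IL-12 directs T cells to the type 1 programme and IL-4 to the type 2 programme. IL-2 is a growth factor of activated T cells.

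Several features of the arrays bear on these values. Array medians lay between 115.25 and 204.2 signal units, and Pearson correlations of log2 signals within groups lay between 0.841 and 0.937. The CD4 fresh array of letter C had a 3'/5' signal ratio of 7.62 for Actb and 4.97 for Gapdh, while the highest ratios on any other fresh array were 1.62 and 1.62, and cultured arrays reached 1.15 and 1.04. The experiment files of 2 arrays, CD8 IL-2/IL-4 letter C and CD8 IL-2/IL-12 letter D, carry each other's code. The groups here follow the titles, and results that rest on those arrays are also given with both left out and with both exchanged. Arrays were scanned on 9 days, which form 5 scan periods separated by gaps of more than 35 days. Chip lots, coded 1 to 4, also differed between arrays. The experiment files state a repeat for CD4 fresh letters A and C, CD4 IL-2/IL-4 letter A, CD8 IL-2 letter L and CD8 IL-2/IL-12 letter L. They also state one for B fresh letter K and B anti-IgM/IL-4 letters G and K. Neither chip lot nor repeat entered any fit. Of 9 T-cell markers only Cd2 was measured by a named probe set. The Cd2 signal was 718.6 to 903.5 on cultured and 1553 to 3003 on fresh B-cell arrays, against 3579 to 12720 on cultured and 1940 to 7011 on fresh T-cell arrays. Descriptions of the T-cell arrays also name B cells. The summed signal of 3 B-cell markers (Cd22, Fcer2a and Cxcr5) was 8401 to 24976 on B-cell arrays and at most 3076 on T-cell arrays.

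The promoter windows of the 3 genes are shown because the genes shared a direction in several of the comparisons below. The windows come from RefSeq on the build GRCm38.p6, 300 bases each, written 5′ to 3′ along the gene, from 250 bases before to 50 after the start site. The window of Ccr2 is placed at a start site inside the annotated gene. Capitals mark the only match to any of the 3 motifs searched on both strands.
Cxcr3, chrX:101734098-101734397, minus strand: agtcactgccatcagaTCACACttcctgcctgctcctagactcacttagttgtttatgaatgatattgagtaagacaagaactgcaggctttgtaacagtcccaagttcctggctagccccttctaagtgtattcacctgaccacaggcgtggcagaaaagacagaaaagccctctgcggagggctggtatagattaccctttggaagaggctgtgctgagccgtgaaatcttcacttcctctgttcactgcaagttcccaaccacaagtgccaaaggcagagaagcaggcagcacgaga
Cxcr6, chr9:123806227-123806526, plus strand: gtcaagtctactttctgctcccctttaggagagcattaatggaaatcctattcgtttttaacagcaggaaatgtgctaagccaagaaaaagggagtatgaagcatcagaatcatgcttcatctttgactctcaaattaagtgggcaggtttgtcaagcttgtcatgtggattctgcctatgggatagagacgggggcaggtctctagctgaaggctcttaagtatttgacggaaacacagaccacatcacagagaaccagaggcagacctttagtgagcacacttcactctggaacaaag
Ccr2, chr9:124101933-124102232, plus strand: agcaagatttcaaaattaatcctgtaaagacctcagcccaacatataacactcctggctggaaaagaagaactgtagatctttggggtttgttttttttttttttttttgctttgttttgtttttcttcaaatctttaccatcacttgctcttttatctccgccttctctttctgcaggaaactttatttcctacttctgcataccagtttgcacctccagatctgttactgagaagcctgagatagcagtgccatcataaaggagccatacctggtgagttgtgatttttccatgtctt
The Cxcr3 window holds TCACAC, the reverse complement of the T-box core GTGTGA, at bases 17 to 22. That motif is the binding core of factors such as T-bet (Tbx21) and Eomes, and 14.5% of all 32851 promoter windows of this length hold it. No window of the 3 genes holds TTCNNNGAA, the gamma-activated site of STAT proteins (8.3% of all windows), or the STAT6 site with its longer spacer (6.95% of all windows). These matches describe the letters only. Cxcr6 and Ccr2 lie on chromosome 9 with Xcr1, Ccr1 and Ccr3 between them, and Cxcr3 lies on chromosome X.

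Cxcr3 signal was high in fresh T cells and low in every cultured CD8 group. In CD8 cells it was 165.5, 65.9 and 295.8 with IL-2, 130.3, 292 and 132.9 with IL-2/IL-4, and 91.9, 254.9 and 237.5 with IL-2/IL-12, against 2256.3, 2010.5 and 1238.5 in fresh cells. Every cultured CD8 array lay below every fresh one. With IL-2, IL-2/IL-4 and IL-2/IL-12, 208, 236 and 227 of 746 probe sets had no overlap with fresh CD8 arrays, in either direction. In CD4 cells Cxcr3 signal was 822.5, 455.1 and 646.3 with IL-2, 198.9, 281.4 and 470.6 with IL-2/IL-4, and 794.2, 443.6 and 555.3 with IL-2/IL-12, against 1463.5, 1653.7 and 508.6 in fresh cells. The CD4 IL-2/IL-4 arrays lay below all fresh arrays, while the other CD4 cultures overlapped with the fresh array of letter C. Between CD4 IL-2/IL-4 and fresh CD4 arrays, 257 of 746 probe sets had no overlap. B cells had 281.7, 49 and 16.8 with anti-IgM/IL-4, against 264.8, 160.1 and 169.4 fresh. The cultured B arrays spanned a wide range around the fresh ones. The order of mean Cxcr3 signal ran from CD8 fresh (1835 ± 531, SD, n = 3) through CD4 fresh (1209 ± 614), CD4 IL-2 (641 ± 184), CD4 IL-2/IL-12 (598 ± 179), CD4 IL-2/IL-4 (317 ± 139), B fresh (198.1 ± 58.0), CD8 IL-2/IL-12 (195 ± 89.5), CD8 IL-2/IL-4 (185 ± 92.6) and CD8 IL-2 (176 ± 115) down to B anti-IgM/IL-4 (116 ± 145). Each neighbouring pair in that order overlapped between arrays.

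**Figure D1:**
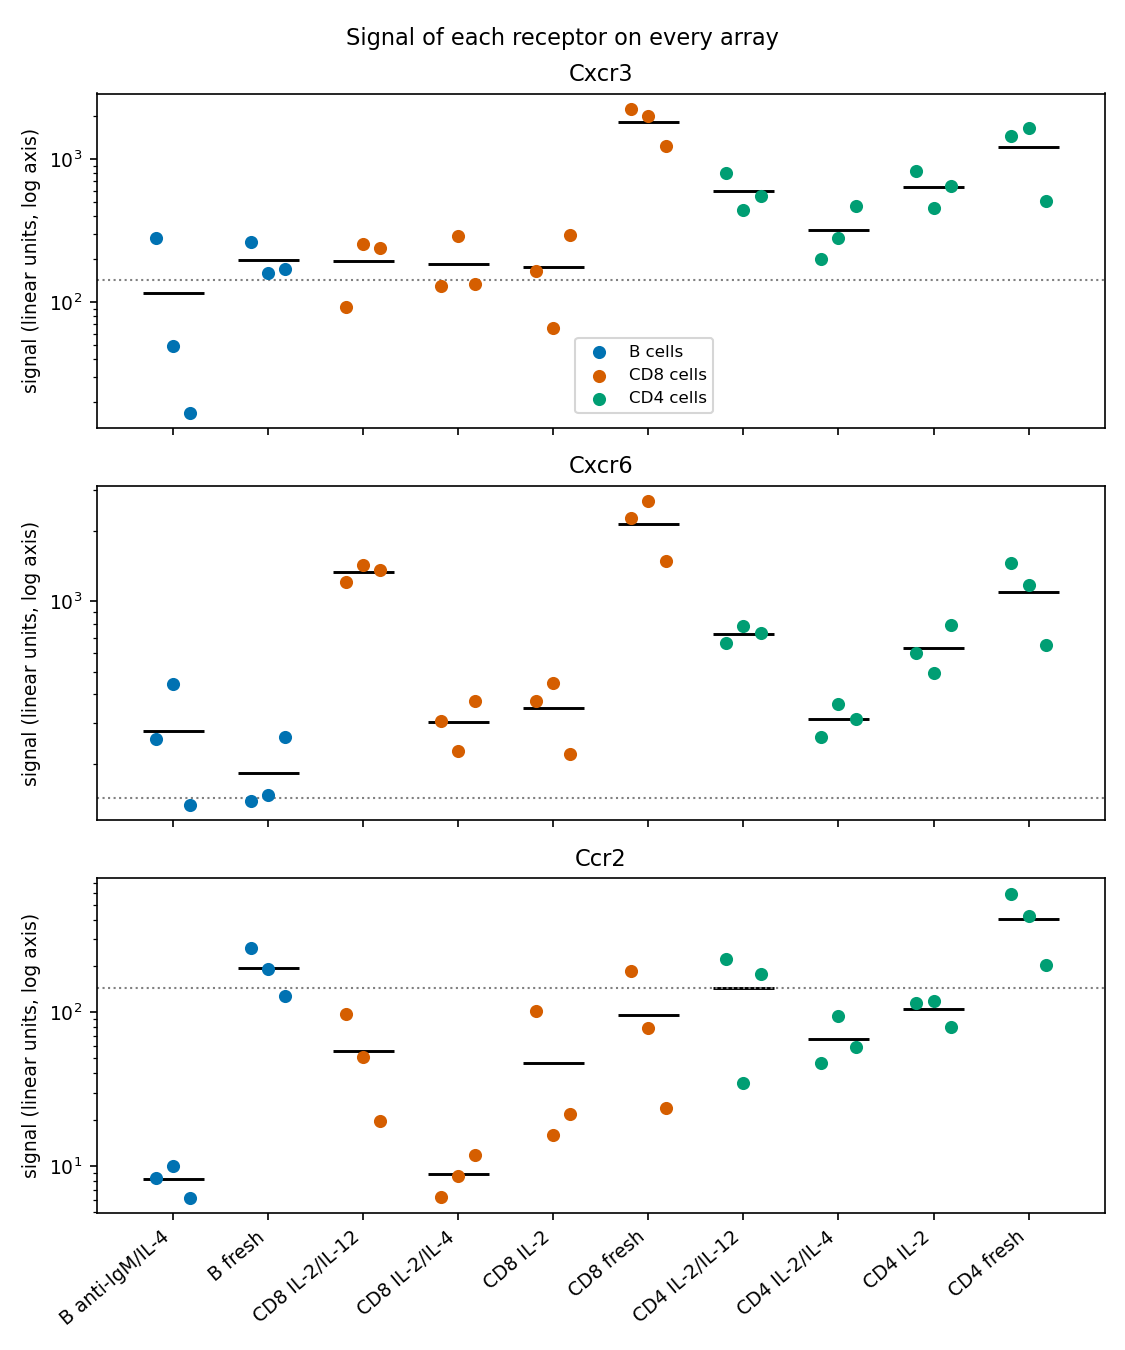
Signal of Cxcr3, Cxcr6 and the brighter Ccr2 probe set on each of the 30 arrays (vertical log axes, linear signal units). Points are arrays, black bars are means of 3 arrays, and the dotted line is the median of all signals, 143.6. Cxcr3 is low in all 3 CD8 cultures, while Cxcr6 in CD8 IL-2/IL-12 cultures stays between 1212.6 and 1430.1.

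On the log2(signal + 16) scale, with one limma fit over all arrays, Cxcr3 fell by 3.43 ± 0.62 (SE) in CD8 cells with IL-2 relative to fresh CD8 cells (adjusted p = 1.59e-04), a 10.8-fold difference. It fell by 3.25 ± 0.62 with IL-2/IL-4 (adjusted p = 3.36e-04) and by 3.20 ± 0.62 with IL-2/IL-12 (adjusted p = 4.38e-04). The median over all probe sets was -0.09, -0.11 and -0.09 in these comparisons as deposited, and 0.13, 0.10 and 0.07 after each array was centred on its median. Less RNA per cell and fewer Cxcr3-bearing cells cannot be told apart in such bulk samples. Among the 746 probe sets, 16.1% passed with IL-2, 18.1% with IL-2/IL-4 and 14.6% with IL-2/IL-12, and Cxcr3 ranked 9, 11 and 10 from the lowest change. A block for scan period gave changes of -3.21, -3.25 and -3.09, all with adjusted p under 0.05. Within single periods they were -3.71 with IL-2, -3.96 and -2.90 with IL-2/IL-4, and -3.89 with IL-2/IL-12. Without the 2 arrays of crossed code they were -3.08 with IL-2/IL-4 and -2.78 with IL-2/IL-12, and with these arrays exchanged -3.40 and -3.05, and all these passed.

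In CD4 cells the Cxcr3 change from fresh cells passed in the IL-2/IL-4 culture alone, at -1.79 ± 0.62 (adjusted p = 0.0384), where 21.2% of probe sets passed. The median over all probe sets there was -0.19 as deposited and 0.24 after centring. The Cxcr3 change was -0.77 ± 0.62 with IL-2 (adjusted p = 0.481, 17.2% of probe sets passed) and -0.87 ± 0.62 with IL-2/IL-12 (adjusted p = 0.40, 15.7% passed). The 95% intervals of these 2 changes, -2.04 to 0.50 and -2.14 to 0.40, include both no change and a large fall, and with scan day as a block the 2 changes turned to 1.27 (adjusted p = 0.390) and 1.17 (adjusted p = 0.439). The IL-2/IL-4 call was lost without CD4 fresh letter A (-1.57, adjusted p = 0.115) or B (-1.49, 0.147) and without IL-2/IL-4 letter A (-1.52, 0.143) or B (-1.75, 0.0963), and a block for scan period gave -1.91 (adjusted p = 0.0678). With scan day as a block its sign turned (0.87, adjusted p = 0.689), and within a scan period it was -2.55. No cultured CD4 array shared a scan day with a fresh CD4 array. The scan day block therefore links these groups only through arrays of other cell types. The change in the CD8 culture minus that in the CD4 culture was -2.66 ± 0.87 with IL-2 (adjusted p = 0.124, 2.55% of probe sets passed), -1.46 ± 0.87 with IL-2/IL-4 (adjusted p = 0.566, 2.68% passed) and -2.33 ± 0.87 with IL-2/IL-12 (adjusted p = 0.306, 0.804% passed). None of these 3 differences passed. In B cells the change was -1.28 ± 0.62 (adjusted p = 0.226), where 9.79% of probe sets passed, and without the cultured array of letter G it was -2.18 (adjusted p = 0.0150).

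**Figure D2:**
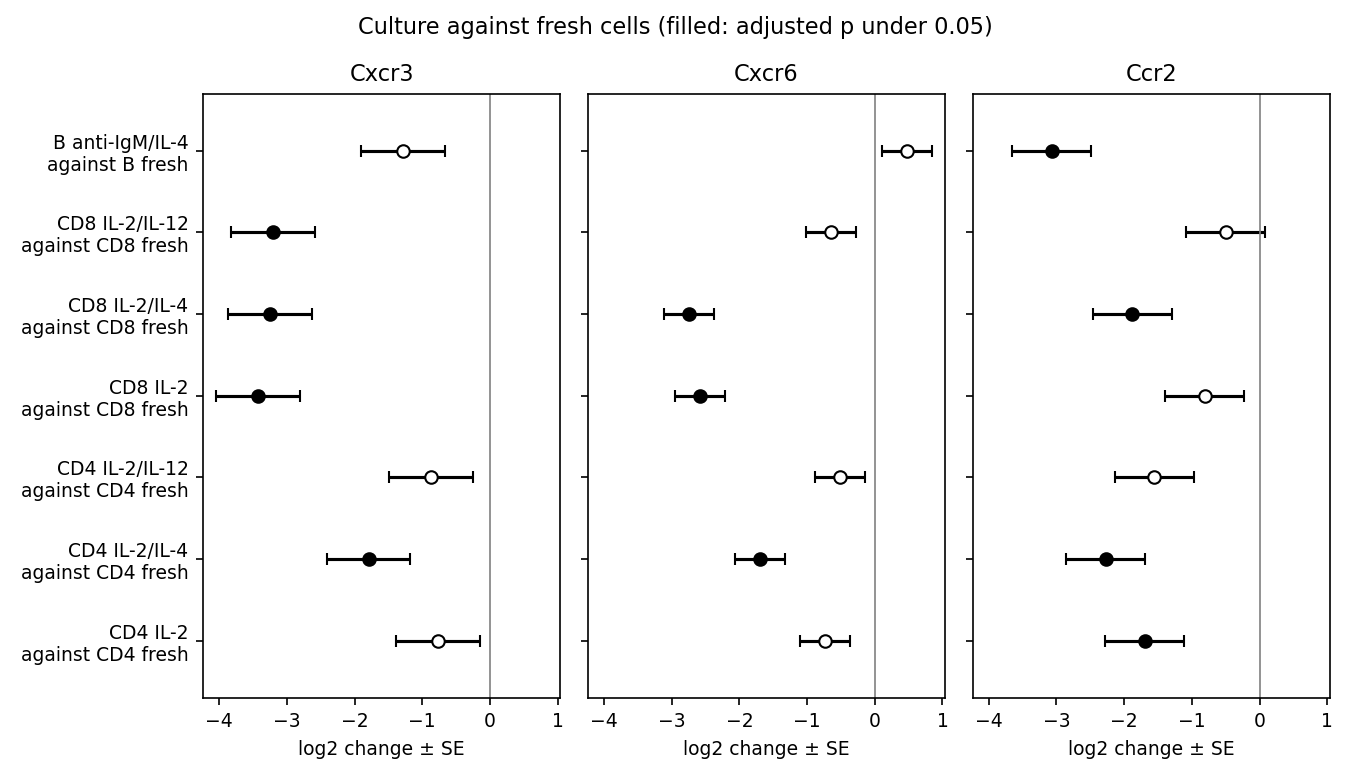
Log2 change of each receptor in cultured against fresh cells of the same type, with the moderated SE from limma as bars (horizontal axes, log2 units). Filled points have an adjusted p under 0.05. Cxcr3 has filled points between -3.43 and -3.20 in the 3 CD8 cultures, while Cxcr6 has an open point at -0.64 in CD8 cells with IL-2/IL-12. All 3 receptors have filled points in CD4 cells with IL-2/IL-4, where 21.2% of all probe sets passed.

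Cxcr6, the receptor of Cxcl16, fell in CD8 cells with IL-2 and with IL-2/IL-4, and its change with IL-2/IL-12 did not pass. In CD8 cells Cxcr6 signal was 375.7, 449 and 220.9 with IL-2, 308.4, 228.5 and 373.1 with IL-2/IL-4, and 1212.6, 1430.1 and 1368.9 with IL-2/IL-12, against 2287.1, 2692.8 and 1484.9 in fresh cells. The 3 IL-2/IL-12 arrays lay above all arrays of the other cultures and below all fresh ones. Between IL-2/IL-12 and fresh CD8 arrays, 227 of 746 probe sets had no overlap. Between IL-2/IL-12 and the IL-2 or IL-2/IL-4 arrays of CD8 cells, 91 and 125 had none. In CD4 cells Cxcr6 signal was 600.9, 492.9 and 796.2 with IL-2, 263.3, 361.9 and 314 with IL-2/IL-4, and 660.5, 782.6 and 728.8 with IL-2/IL-12, against 1466.6, 1177 and 651.9 in fresh cells. The IL-2/IL-4 arrays were the lowest of the CD4 arrays and overlapped with no other CD4 group. Against fresh CD4 arrays, 257 of 746 probe sets had no overlap in that culture. B cells had 257.6, 442.9 and 133.7 with anti-IgM/IL-4, against 138.8, 148.2 and 262.3 fresh, and the groups overlapped. By mean signal the order was CD8 fresh (2155 ± 615, SD, n = 3), CD8 IL-2/IL-12 (1337 ± 112), CD4 fresh (1099 ± 413), CD4 IL-2/IL-12 (724 ± 61.2), CD4 IL-2 (630.0 ± 154), CD8 IL-2 (349 ± 116), CD4 IL-2/IL-4 (313 ± 49.3), CD8 IL-2/IL-4 (303 ± 72.4), B anti-IgM/IL-4 (278 ± 156) and B fresh (183.1 ± 68.8). Neighbours in that order overlapped except CD8 fresh with CD8 IL-2/IL-12 and CD4 IL-2 with CD8 IL-2.

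Cxcr6 fell by 2.59 ± 0.37 in CD8 cells with IL-2 (adjusted p = 9.36e-06) and by 2.75 ± 0.37 with IL-2/IL-4 (adjusted p = 4.29e-06). These are 6.01-fold and 6.72-fold differences from fresh cells, in comparisons where 16.1% and 18.1% of all probe sets passed. With IL-2/IL-12 the change was -0.64 ± 0.37 (adjusted p = 0.304), with a 95% interval of -1.40 to 0.12. In CD4 cells Cxcr6 fell by 1.69 ± 0.37 with IL-2/IL-4 (adjusted p = 0.00137), where 21.2% of all probe sets passed. The Cxcr6 change was -0.74 ± 0.37 with IL-2 (adjusted p = 0.216) and -0.52 ± 0.37 with IL-2/IL-12 (adjusted p = 0.401), and the IL-2 change was -1.49 once the 3'/5' ratio entered as covariate (adjusted p = 0.0209). On the log2 scale that covariate was 2.62 on CD4 fresh letter C and at most 0.70 on any other array, so it rests mostly on that array. Leaving out single arrays gave -1.07 to -0.49 for the IL-2 change, with 0.0718 as the lowest adjusted p. Under a block for scan period the 3 calls kept their size, at -2.45, -2.75 and -1.79, and within periods the values were -2.24 for CD8 IL-2, -2.83 and -2.71 for CD8 IL-2/IL-4, and -2.19 for CD4 IL-2/IL-4. With scan day as a block the CD4 IL-2/IL-4 call was lost (-1.74, adjusted p = 0.168), though these groups shared no scan day. No array of CD4 IL-2 or CD4 IL-2/IL-12 shared a scan period with a fresh CD4 array. The CD8 change minus the CD4 change was -1.85 ± 0.52 with IL-2 (adjusted p = 0.0613), -1.05 ± 0.52 with IL-2/IL-4 (adjusted p = 0.426) and -0.12 ± 0.52 with IL-2/IL-12 (adjusted p = 0.972). The IL-2 difference passed without CD4 fresh letter A (-2.09, adjusted p = 0.0352) and without CD8 fresh letter C (-2.09, adjusted p = 0.0370).

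The Cxcr6 change in B cells differed from that of T cells in the IL-4-containing cultures. It was 0.47 ± 0.37 (adjusted p = 0.556). It exceeded that of CD4 cells with IL-2/IL-4 by 2.16 ± 0.52 (adjusted p = 0.0107), a difference for which 7.1% of probe sets passed. That call was lost with median centring (1.72, adjusted p = 0.0673), with scan day as a block (1.93, 0.307) and in a fit of the compared groups alone (2.16, 0.101). It exceeded that of CD8 cells with IL-2/IL-4 by 3.22 ± 0.52 (adjusted p = 2.34e-04), where 8.45% passed. Fresh B cells had Cxcr6 signals of 138.8 to 262.3, against 651.9 to 1466.6 in fresh CD4 and 1484.9 to 2692.8 in fresh CD8 cells. The stimuli also differed, since the B cells received anti-IgM and no IL-2.

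Cultures of one subset were also compared with each other by added cytokine, and Cxcr6 in CD8 cells was the only receptor of the 3 to pass in any of them. With IL-2/IL-12 it was 1.94 ± 0.37 higher than with IL-2 (adjusted p = 0.00771), a 3.85-fold difference, and it was 2.11 ± 0.37 higher than with IL-2/IL-4 (adjusted p = 0.00171), a 4.30-fold difference. Only 0.268% of probe sets passed between IL-2/IL-12 and IL-2, 2 of 746, and only 0.536% between IL-2/IL-12 and IL-2/IL-4, 4 of 746. Cxcr6 had the largest increase of all 746 probe sets in the comparison with IL-2 and ranked 2 from the highest in that with IL-2/IL-4. The other probe set that passed against IL-2 carries an accession that the gene table does not name. A block for scan period gave 1.90 and 2.20, both past the threshold, and within periods they were 1.53 and 2.55 against IL-2 and 1.99 against IL-2/IL-4. With scan day as a block both calls were lost, at 1.93 (adjusted p = 0.107) and 2.28 (adjusted p = 0.0721), and in a fit of those 2 groups alone the call against IL-2 was lost (1.94, adjusted p = 0.242). It was also lost without CD8 IL-2 letter L (1.66, adjusted p = 0.0938), without CD8 IL-2/IL-12 letter H (1.89, 0.0599) and without CD8 IL-2/IL-12 letter L (1.93, 0.0503). With the 2 arrays of crossed code left out both calls held, at 2.01 (adjusted p = 0.0361) and 2.33 (adjusted p = 0.0187). With these arrays exchanged both were lost, at 1.39 (adjusted p = 0.987) and 1.0 (adjusted p = 0.999).

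In CD4 cells no such pair of cultures passed for Cxcr6. IL-2/IL-12 stood at 0.22 ± 0.37 against IL-2 (adjusted p = 1.0), where 0.134% of probe sets passed. It stood at 1.18 ± 0.37 against IL-2/IL-4 (adjusted p = 0.199), where 1.34% passed. The 2 sets of arrays did not overlap, as held for 163 of all 746 probe sets. IL-2/IL-4 stood at -0.96 ± 0.37 against IL-2 (adjusted p = 0.424), where 0.804% passed, again without overlap, as for 133 of 746 probe sets. The IL-12 difference in CD8 cells minus that in CD4 cells was 1.73 ± 0.52, with a 95% interval of 0.65 to 2.80 and an adjusted p of 0.553. In that interaction 0% of probe sets passed by limma, with 30 at an unadjusted p under 0.05.

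Neither Cxcr3 nor Ccr2 passed in any of these 6 comparisons. IL-4 in CD8 cells moved Cxcr6 by -0.16 ± 0.37 against IL-2 (adjusted p = 0.995). There 0% of probe sets passed by limma, with 28 at an unadjusted p under 0.05. For Cxcr3 the changes with IL-12 against IL-2 were 0.23 ± 0.62 in CD8 and -0.10 ± 0.62 in CD4 cells, with 95% intervals of -1.05 to 1.50 and -1.37 to 1.17. Ccr2 in CD8 cells stood at 1.38 ± 0.58 with IL-2/IL-12 against IL-2/IL-4 (adjusted p = 0.535) and at -1.07 ± 0.58 with IL-2/IL-4 against IL-2 (adjusted p = 0.995), in both cases without overlap between arrays. Of all 746 probe sets, 125 and 71 had no overlap in these 2 comparisons.

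**Figure D3:**
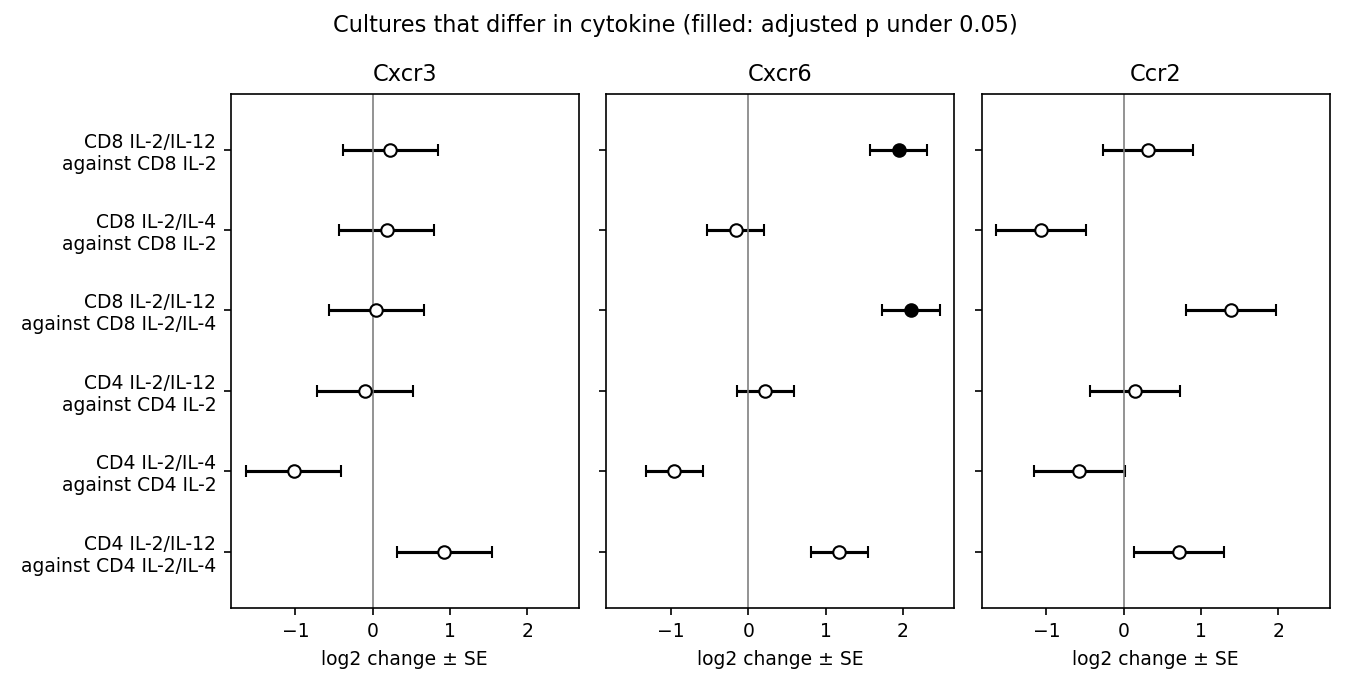
Log2 difference of each receptor between cultures of the same subset that differ in cytokine, with the moderated SE as bars (horizontal axes, log2 units). Filled points have an adjusted p under 0.05. The only filled points are those of Cxcr6 in CD8 cells, at 1.94 and 2.11.

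Ccr2, the receptor of Ccl2, had its highest mean signal in fresh CD4 cells and its lowest in cultured B cells. Its brighter probe set gave 115.6, 119.2 and 80.1 in CD4 cells with IL-2, 46.8, 94.2 and 59 with IL-2/IL-4, and 222, 34.4 and 176.9 with IL-2/IL-12, against 592.8, 421.2 and 203.5 in fresh cells. The IL-2 and IL-2/IL-4 arrays lay below all fresh arrays, while 1 IL-2/IL-12 array overlapped with the lowest fresh one. Of all 746 probe sets, 228 with IL-2 and 257 with IL-2/IL-4 had no overlap with fresh CD4 arrays. In CD8 cells the brighter Ccr2 probe set gave 102.1, 15.8 and 21.8 with IL-2, 6.3, 8.6 and 11.8 with IL-2/IL-4, and 97.2, 51.1 and 19.6 with IL-2/IL-12, against 185.8, 78.4 and 23.9 in fresh cells. Only the IL-2/IL-4 arrays were all below the fresh ones, a comparison in which 236 of 746 probe sets had no overlap. B cells had 8.3, 10 and 6.2 with anti-IgM/IL-4, against 261.8, 190.5 and 127.8 fresh, and the groups were far apart. Between these B-cell groups 164 of 746 probe sets had no overlap. The cultured B arrays placed Ccr2 between the 0.938 and the 4.02 percentile of all probe sets of their array. The CD8 IL-2/IL-4 arrays placed it between the 2.41 and the 3.69 percentile. No detection call shows whether such signals lie above background. Of all 30 arrays, 8 had a signal of this probe set above the median of all signals, 143.6. The order of means was CD4 fresh (406 ± 195, SD, n = 3), B fresh (193 ± 67.0), CD4 IL-2/IL-12 (144 ± 97.9), CD4 IL-2 (105 ± 21.6), CD8 fresh (96.0 ± 82.4), CD4 IL-2/IL-4 (66.7 ± 24.6), CD8 IL-2/IL-12 (56.0 ± 39.0), CD8 IL-2 (46.6 ± 48.2), CD8 IL-2/IL-4 (8.9 ± 2.76) and B anti-IgM/IL-4 (8.17 ± 1.90). Neighbours overlapped except CD8 IL-2 with CD8 IL-2/IL-4.

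Ccr2 fell by 3.07 ± 0.58 in B cells with anti-IgM/IL-4 (adjusted p = 8.42e-04). The cultured signals lie below the pseudocount of 16, so the size depends on it, at -4.37 with a pseudocount of 1 and -1.80 with 64. Within the 3 scan periods, each with 1 array of either group, it was -3.52, -2.99 and -2.70. In CD4 cells it fell by 2.27 ± 0.58 with IL-2/IL-4 (adjusted p = 0.00586) and by 1.70 ± 0.58 with IL-2 (adjusted p = 0.0443), and it stood at -1.55 ± 0.58 with IL-2/IL-12 (adjusted p = 0.0764). In CD8 cells it fell by 1.88 ± 0.58 with IL-2/IL-4 (adjusted p = 0.0239), and it stood at -0.81 ± 0.58 with IL-2 (adjusted p = 0.440) and -0.50 ± 0.58 with IL-2/IL-12 (adjusted p = 0.722). The CD8 IL-2/IL-4 signals, 6.3 to 11.8, also lie below the pseudocount of 16, and with 64 the change was -1.0 and did not pass. Over all probe sets, 9.79% passed in the B-cell comparison. With IL-2/IL-4, 21.2% passed in CD4 and 18.1% in CD8 cells, and 17.2% passed in CD4 cells with IL-2. Blocked by scan period, the IL-2/IL-4 changes were -1.88 in CD8 and -2.69 in CD4 cells, both past the threshold, and the CD4 IL-2 change was -1.95 (adjusted p = 0.0876). Within periods the IL-2/IL-4 change was -3.18 and -1.23 in CD8 cells and -2.87 in CD4 cells. With scan day as a block the CD4 IL-2/IL-4 call was lost (-3.01, adjusted p = 0.120), though those CD4 groups shared no scan day. The change in CD8 minus that in CD4 cells was 0.89 ± 0.82 with IL-2 (adjusted p = 0.791), 0.39 ± 0.82 with IL-2/IL-4 (adjusted p = 0.893) and 1.06 ± 0.82 with IL-2/IL-12 (adjusted p = 0.726), and none passed.

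Several Ccr2 calls changed when single arrays were left out, some of them with the value itself little moved. The CD8 IL-2/IL-4 call was lost without CD8 fresh letter A (-1.31, adjusted p = 0.175) or B (-1.86, 0.0656), without CD8 IL-2/IL-4 letter A (-1.80, 0.0738) or B (-1.87, 0.0615), and with the 2 crossed-code arrays exchanged (-1.20, 0.247), and it passed with both left out (-1.96, 0.0439). The CD4 IL-2 call was lost without CD4 fresh letter A (-1.37, 0.174) or B (-1.61, 0.113) and without CD4 IL-2 letter D (-1.77, 0.0865), E (-1.79, 0.0817) or L (-1.54, 0.134). The CD4 IL-2/IL-12 change passed without CD4 fresh letter C (-1.96, adjusted p = 0.0427) and without CD4 IL-2/IL-12 letter D (-1.98, adjusted p = 0.0410).

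The other Ccr2 probe set passed in none of the comparisons. It had 67.7, 4.1 and 83.8 in B cells with anti-IgM/IL-4, against 99.8, 45.1 and 49.9 in fresh B cells. These overlapped, and the change was -0.49 ± 0.62 (adjusted p = 0.776). In CD4 cells it had 38.7, 32.2 and 67.6 with IL-2, 31.1, 29.1 and 3.3 with IL-2/IL-4, and 47.5, 58.3 and 26 with IL-2/IL-12, against 81.4, 96.2 and 106.8 in fresh cells. All 9 cultured CD4 arrays lay below the 3 fresh ones, with changes of -0.87, -1.68 and -0.92 (adjusted p = 0.424, 0.0551 and 0.374). Of all 746 probe sets, 228, 257 and 221 had no overlap in these comparisons. In CD8 cells with IL-2/IL-4 it had 37, 2 and 7.7, against 37.4, 92.2 and 87.2 in fresh cells, a change of -1.57 ± 0.62 (adjusted p = 0.0865). None of its 30 signals reached the median of all signals, 143.6. The log2 signals of the 2 Ccr2 probe sets correlated at r = 0.75 over the 10 group means and r = 0.39 over the 30 arrays.

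**Figure D4:**
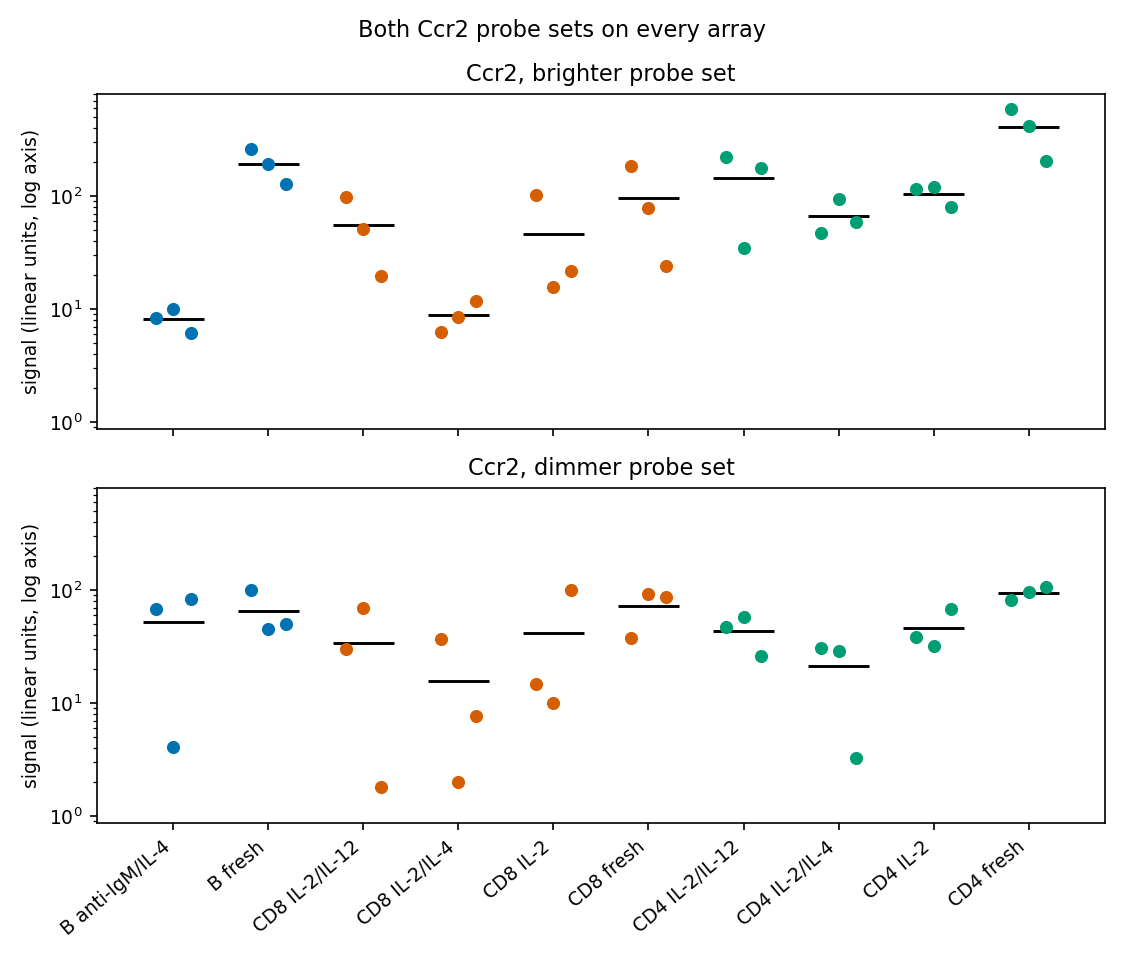
Signal of the brighter and the dimmer Ccr2 probe set on each of the 30 arrays (vertical log axes, linear signal units, shared by the panels). Points are arrays and bars are means of 3 arrays, with B cells in blue, CD8 cells in orange and CD4 cells in green. In B cells the brighter probe set separates cultured from fresh arrays, while the dimmer one has 67.7, 4.1 and 83.8 against 99.8, 45.1 and 49.9.

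Sums of markers of several other cell types also differed between cultured and fresh arrays, and their part in the receptor changes was not tested. The summed signal of 3 of 6 dendritic cell markers (Itgax, Flt3 and Xcr1) was 71.9 to 250.6 on cultured and 1478 to 2310 on fresh CD4 arrays, 49.5 to 278.3 on cultured and 714.4 to 1465 on fresh CD8 arrays, and 242.0 to 565.9 on cultured and 359.2 to 1943 on fresh B arrays. That of 3 of 6 endothelial and stromal markers (Vcam1, Tek and Madcam1) was 302.4 to 518.3 and 2372 to 5242 in CD4, 162.5 to 480.6 and 1797 to 2100 in CD8, and 435.5 to 1017 and 2696 to 3994 in B cells, cultured and fresh in turn. These lists did not move together. The dendritic sum was carried by Itgax, with means of 26.9 to 40.3 in CD4 cultures and 1651 in fresh CD4 cells, while Flt3 averaged 47.7 to 76.3 in CD4 cultures and 48.5 in fresh CD4 cells, and 232.9 in cultured and 126.8 in fresh B cells. The stromal sum was carried by Vcam1, with means of 104.9 to 147.0 in CD4 cultures and 3345 in fresh CD4 cells. Madcam1 ran the other way in all 3 cell types, for example with means of 214.2 to 250.9 in CD4 cultures and 139.0 in fresh CD4 cells, and Tek averaged under 100 in every group. For monocytes and macrophages, which are a main source of Ccr2 in spleen, 3 of 11 markers (Siglec1, Cd33 and Siglece) were measured. Their sum was 108.2 to 590.0 on cultured and 442.0 to 797.8 on fresh CD4 arrays, 95.4 to 325.0 on cultured and 183.0 to 332.3 on fresh CD8 arrays, and 234.7 to 395.7 on cultured and 317.6 to 908.8 on fresh B arrays. These 3 genes did not move together either. Siglece averaged 399.4 in fresh CD4 cells and 18.4 to 92.9 in CD4 cultures, 97.5 in fresh and 72.4 to 87.2 in cultured CD8 cells, and 298.6 in fresh and 99.0 in cultured B cells. In CD4 cells with IL-2, Siglec1 (189.7 against 147.7) and Cd33 (133.5 against 53.0) averaged higher than in fresh cells. The 2 measured markers of NK and NKT cells (Klrd1 and Il2rb, of 8), cells known for Cxcr3 and Cxcr6, summed to 12298 to 19729 on cultured and 6854 to 10094 on fresh CD8 arrays. In CD4 cells they summed to 3871 to 8808 on cultured and 3601 to 4593 on fresh arrays, and in B cells to 741.7 to 1540 and 369.2 to 2191. Il2rb is also listed as an activation gene, and Klrd1 averaged 4852 in fresh CD8 and 1019 in fresh CD4 cells, so the sum does not measure NK cells alone. In CD4 cells with IL-2/IL-4, Klrd1 averaged 300.6 against 1019 in fresh cells, while Il2rb averaged 6185 against 2996. The summed B-cell markers came to 469.5 to 1010 on cultured and 1897 to 2679 on fresh CD4 arrays, to 353.4 to 593.0 and 1169 to 3076 in CD8 cells, and to 8401 to 14659 and 20124 to 24976 in B cells. Platelet markers (Pf4 and Itga2b, 2 of 4) summed to 35.7 to 170.6 on cultured and 153.4 to 358.1 on fresh CD4 arrays, to 27.8 to 122.8 on cultured CD8 arrays and a median of 139.6 (lowest 35.8) on the 3 fresh ones, and to 55.8 to 178.5 and 236.5 to 541.2 in B cells. The neutrophil marker Cxcr2 (1 of 5) was at 53.4 to 223.2 and 83.3 to 325.7 in CD4, 39.3 to 201.2 and 57.5 to 285.4 in CD8, and 71.0 to 208.6 and 76.1 to 620.8 in B cells. No marker was listed at 0.

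Between the subsets, none of the 3 receptors passed under matched conditions. In fresh cells Ccr2 stood at -2.09 ± 0.58 in CD8 against CD4 cells (adjusted p = 0.0599), where 1.61% of probe sets passed. The arrays did not overlap, as held for 99 of 746 probe sets. Without CD8 fresh letter A the Ccr2 difference passed (-2.66, adjusted p = 0.0240). The other Ccr2 probe set stood at -0.39 ± 0.62 in fresh cells (adjusted p = 0.897), and its arrays overlapped. Cxcr6 stood at 1.0 ± 0.37 (adjusted p = 0.208) and Cxcr3 at 0.72 ± 0.62 (adjusted p = 0.712) in the same comparison. With IL-2, Cxcr3 stood at -1.94 ± 0.62 in CD8 against CD4 cells (adjusted p = 0.0911, 3.22% of probe sets passed), and with IL-2/IL-12 at -1.61 ± 0.62 (adjusted p = 0.248, 2.82% passed). Both were without overlap, as were 176 and 163 of 746 probe sets in these comparisons. With IL-2/IL-4 Cxcr3 stood at -0.74 ± 0.62 (adjusted p = 0.705), where 3.89% of probe sets passed. Cxcr6 stood at -0.85 ± 0.37 with IL-2 (adjusted p = 0.297), -0.06 ± 0.37 with IL-2/IL-4 (adjusted p = 0.978) and 0.87 ± 0.37 with IL-2/IL-12 (adjusted p = 0.357). Ccr2 stood at -1.20 ± 0.58 with IL-2 (adjusted p = 0.372), -1.70 ± 0.58 with IL-2/IL-4 (adjusted p = 0.130) and -1.03 ± 0.58 with IL-2/IL-12 (adjusted p = 0.527). The other Ccr2 probe set stood at -0.42, -0.29 and -0.50 in these 3 comparisons, each with overlap between arrays.

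Fresh B cells carried less Cxcr3 and Cxcr6 signal than fresh T cells, while Ccr2 did not pass. Against fresh CD4 cells, Cxcr3 was lower by a log2 change of -2.38 ± 0.62 (adjusted p = 0.0152) and Cxcr6 by -2.46 ± 0.37 (adjusted p = 4.85e-05), with 6.7% of probe sets past the threshold. The Cxcr3 call was lost without CD4 fresh letter A (-2.16, adjusted p = 0.0705) or B (-2.07, 0.0855) and without B fresh letter E (-2.26, 0.0592) or K (-2.29, 0.0575). Against fresh CD8 cells, Cxcr3 stood at -3.10 ± 0.62 (adjusted p = 0.00122) and Cxcr6 at -3.46 ± 0.37 (adjusted p = 1.72e-07), an 11-fold difference, with 8.18% past the threshold. These ranked 5 and 3 from the lowest of 746. Within scan periods, Cxcr3 was -2.40, -3.25 and -1.50 against CD4 and -3.02 against CD8 cells, and Cxcr6 was -3.26, -2.86 and -1.26 against CD4 and -3.90 against CD8 cells. Ccr2 in fresh B cells stood at -0.94 ± 0.58 against fresh CD4 (adjusted p = 0.472) and at 1.15 ± 0.58 against fresh CD8 cells (adjusted p = 0.306). The other Ccr2 probe set stood at -0.51 and -0.12 there. Both IL-4-containing cultures were also set side by side, where 20.5% of probe sets passed. B cells with anti-IgM/IL-4 stood at -1.87 ± 0.62 against CD4 cells with IL-2/IL-4 for Cxcr3 (adjusted p = 0.0317), -1.74 ± 0.58 for Ccr2 (adjusted p = 0.0343) and -0.30 ± 0.37 for Cxcr6 (adjusted p = 0.647). The first of these overlapped between groups. The Cxcr3 value ranged from -2.77 to -1.18 and the Ccr2 value from -1.91 to -1.51 over the leave-outs of single arrays, which ended the Cxcr3 call for CD4 letters B (-1.91) and C (-1.56) and B letters H (-1.67) and K (-1.18), and the Ccr2 call for CD4 letters B (-1.51) and C (-1.79) and B letters G (-1.74), H (-1.79) and K (-1.68).

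Over the 10 group means on the log2 scale, Cxcr3 and Cxcr6 correlated at r = 0.74, Cxcr3 and Ccr2 at 0.66, and Cxcr6 and Ccr2 at 0.32. Over the 30 arrays these were 0.65, 0.58 and 0.30. The values share arrays and their scaling, and they describe these arrays only. The CD8 IL-2/IL-12 arrays stood apart in the plane of Cxcr3 and Cxcr6, with Cxcr6 signals of 1212.6 to 1430.1 beside Cxcr3 signals of 91.9 to 254.9. By the same measure, the genes most like Cxcr3 among 276 others were Ccl5, a chemokine of effector T cells (0.89 over groups, 0.74 over arrays), the integrin beta chain Itgb7 (0.87 and 0.76) and the integrin alpha chain Itga6 (0.82 and 0.66). Those most like Cxcr6 were Selplg, the selectin ligand PSGL-1 (0.85 and 0.76), the IL-7 receptor chain Il7r (0.75 and 0.71) and Cxcr3 itself (0.74 and 0.65). Those most like Ccr2 were the lymphotoxin chain Ltb (0.83 and 0.73), the hedgehog receptor Ptch1 (0.78 and 0.13) and the IL-11 receptor chain Il11ra1 (0.78 and 0.59).

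**Figure D5:**
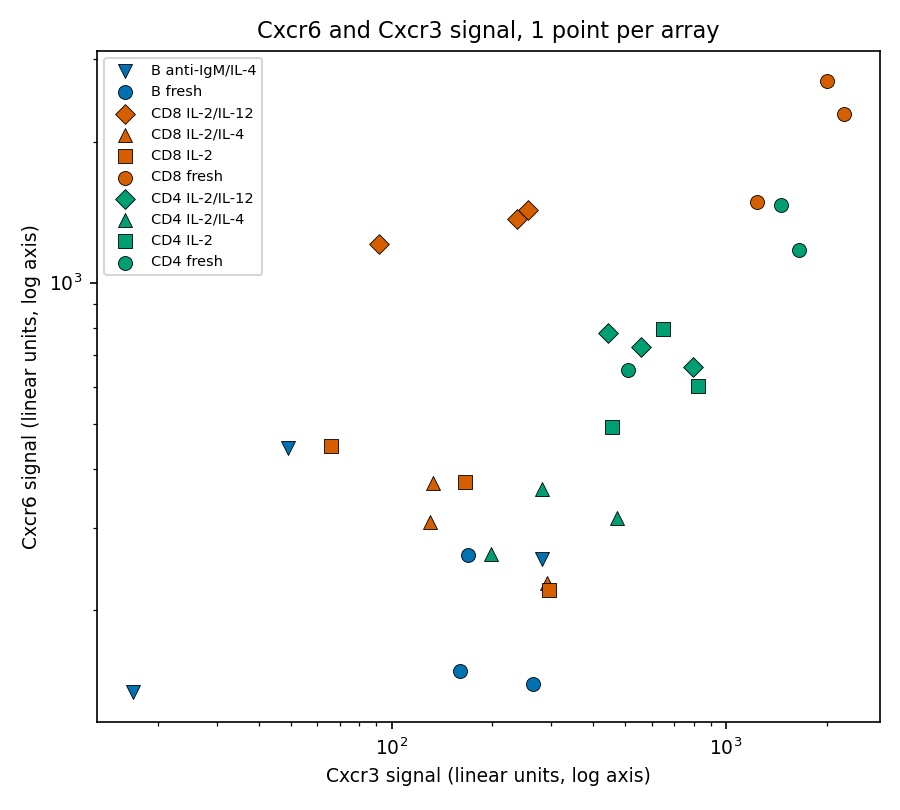
Cxcr6 signal against Cxcr3 signal with 1 point per array (both axes logarithmic, linear signal units). Colours mark the cell type and symbols the condition. The 3 CD8 IL-2/IL-12 arrays combine Cxcr6 signals of 1212.6 to 1430.1 with Cxcr3 signals of 91.9 to 254.9.

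Of 9 genes listed as ligands of these receptors, 6 were measured: Cxcl9, Cxcl10 and Pf4, listed for Cxcr3, and Ccl7, Ccl8 and Ccl12, listed for Ccr2. Which receptor each of them binds in these mouse cells was not tested. Cxcl9 fell in all 7 cultures relative to fresh cells, by 3.08 in CD8 cells with IL-2 (adjusted p = 4.6e-06), where its signal was 18.7 ± 2.55 with IL-2 and 295 ± 138 in fresh cells (SD, n = 3). Cxcl10 rose in CD8 cells by 1.65 with IL-2 (adjusted p = 0.0015) and by 1.54 with IL-2/IL-12 (adjusted p = 0.0030), and Pf4 fell in CD4 cells with changes of -1.89 with IL-2 (adjusted p = 0.024) and -2.24 with IL-2/IL-12 (adjusted p = 0.0069). Pf4 also fell in B cells, with a change of -1.98 (adjusted p = 0.028). The genes listed for Ccr2 passed in no culture against fresh cells. Over the 6 listed ligand genes the median change was between -0.77 and -0.01 in the 7 cultures, beside -0.19 to 0.09 over all probe sets. In these 7 comparisons 9.79% to 21.2% of all probe sets passed.

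Of 20 other chemokine receptors 10 were measured. Of these, 3 fell with IL-2, 2 with IL-2/IL-4 and 2 with IL-2/IL-12 in CD4 cells, and 3, 3 and 2 fell in the same cultures of CD8 cells. With IL-2/IL-4, 2 rose in CD4 and 1 in CD8 cells, and no other culture had a rise. Over all probe sets 14.6% to 21.2% passed in these T-cell comparisons. Counting rises and falls, the share was near that background with IL-2/IL-12 and above it in the other T-cell cultures, with only 10 genes measured. In B cells none of the 10 passed by limma (lowest adjusted p = 0.157, for Cxcr5), beside 9.79% of all probe sets. Ccr9, a receptor of gut-homing T cells, fell in all 6 T-cell cultures, and so did the follicular receptor Cxcr5. Cxcr5 is also one of the 3 B-cell markers, whose sum on T-cell arrays was lower in culture (469.5 to 1010 on cultured and 1897 to 2679 on fresh CD4 arrays), and the part of B cells in its fall was not tested. In CD8 cells with IL-2 their changes were -2.22 (adjusted p = 2.9e-04) and -2.32 (adjusted p = 0.0025). The type 2 receptors Ccr4 and Ccr8 rose in CD4 cells with IL-2/IL-4, by 2.85 (adjusted p = 1.2e-05) and 1.82 (adjusted p = 0.0076). In that culture Cxcr3, Cxcr6 and Ccr2 were called lower, and all 3 of those calls were lost with scan day as a block. That culture shared no scan day with the fresh CD4 arrays. The other type 2 genes measured were the cytokines Il4, Il5 and Il13, and 4 of the 5 genes rose there, beside 21.2% of all probe sets called in either direction, with Il4 at 5.35 (adjusted p = 2.9e-09). The median of the 5 was 2.52, beside -0.19 for all probe sets. Against CD4 IL-2/IL-4, CD4 IL-2/IL-12 cultures had less Ccr4 (-3.48, adjusted p = 3.0e-06) and less Il4 (-3.69, adjusted p = 3.0e-06).

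Of 19 type 1 genes 9 were measured, and 4 of them rose in each CD4 culture and 5 in each CD8 culture. In CD4 cells 1 fell with IL-2/IL-4, and in CD8 cells 1 fell with IL-2, 1 with IL-2/IL-4 and 2 with IL-2/IL-12. Over all probe sets 15.7% to 21.2% were called in the CD4 and 14.6% to 18.1% in the CD8 comparisons. The IL-12 receptor chains Il12rb1 and Il12rb2 and the chemokines Ccl3 and Ccl4 were among them in all 6. In CD8 cells with IL-2, Il12rb1 rose by 4.98 and Il12rb2 by 5.07, while Ccl3 rose by 5.50 and Ccl4 by 4.33, all with adjusted p under 0.05 and opposite in direction to Cxcr3. Ccl5 fell there by 2.82 (adjusted p = 2.05e-04), with signals of 675 ± 64 with IL-2 and 4909 ± 1036 in fresh CD8 cells (SD, n = 3). Adding IL-12 to IL-2 moved no measured type 1 gene past the threshold in CD8 cells, where Il18rap, a chain of the IL-18 receptor, had the largest change at 1.69 (adjusted p = 0.49). Of 13 memory and activation surface genes 7 were measured. Tnfrsf4, the costimulatory receptor OX40, rose in all 6 T-cell cultures, by 5.21 in CD8 cells with IL-2 (adjusted p = 3.5e-08). Itgae, the integrin chain CD103, fell in CD8 cells, with changes of -3.13 with IL-2, -3.29 with IL-2/IL-4 and -3.42 with IL-2/IL-12, all with adjusted p under 0.05, and Selplg fell by 1.28 with IL-2 (adjusted p = 0.0022). The median of the 7 in CD8 cells was -0.77 with IL-2, beside -0.09 for all probe sets.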

How the data were processed

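Gene expression was measured on a custom Affymetrix array of genes of glycobiology and immunity in 30 samples of mouse lymphocytes. The files hold 1 linear intensity value per probe set and array, as deposited by the authors, in 1 table of all arrays. How signals were summarised and scaled is not given in the sources used here, and no detection calls were used. Of 752 probe sets, 6 controls were left out, and the values ran from 1 to 54011.4. Groups follow the array titles. RefSeq accessions named 462 probe sets, and 449 of them found a gene through the RefSeq gene table. The 4 probe sets of Cxcr3, Cxcr6 and Ccr2 were taken by that match.

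Signals were transformed to log2(signal + 16), and 1 linear model with 10 group means was fitted to 746 probe sets with limma 3.58.1 (R 4.3.3, lmFit and eBayes, 20 residual degrees of freedom). A fold on this scale understates the change of dim genes. P-values are two-sided and Benjamini-Hochberg adjusted over the 746 probe sets in each contrast, with a threshold of 0.05. The method was tested on simulated data. Tables and figures were made with matplotlib 3.10.9, pandas 2.3.3 and numpy 2.4.6 under Python 3.11.15. The precision is limited by the 3 arrays of a group. The genes, the lists and the tests were chosen with earlier results of these data known. Of each list, up to 4 genes with large changes were named, except for the type 1 genes, of which more than 4 were named. Of each receptor, the 3 genes with the highest correlation over the 10 group means were named. Alternatives were pseudocounts of 1 and 64, median centring, quantile normalization, leaving out the dimmest 40% of probe sets, blocks for scan day, scan period and replicate letter, the 3'/5' ratio as a covariate, fits of the compared groups alone, the other Ccr2 probe set and leaving out each array. Exchanging or leaving out the 2 arrays of crossed code was chosen after seeing the data. Scan days are those stated in the experiment files.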

Additional observations from a re-analysis of the deposited data

Results flagged for a closer look

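The change of Cxcr6 in the IL-4-containing culture against fresh cells differed between B cells and both T-cell subsets by a direct test of the difference. The B-cell change minus the CD4 change was 2.16 ± 0.52 (SE, adjusted p = 0.0107), and the B-cell change minus the CD8 change was 3.22 ± 0.52 (adjusted p = 2.34e-04), both by limma. Over all probe sets 7.1% and 8.45% passed in these differences. The call against CD4 cells was lost with median centring (1.72, adjusted p = 0.0673), with scan day as a block (1.93, 0.307) and in a fit of the compared groups alone (2.16, 0.101), while the call against CD8 cells passed under every alternative run. The B cells received anti-IgM and no IL-2, so the cell type and the stimulus cannot be told apart. Fresh B cells also had low Cxcr6 signals, 138.8 to 262.3, where the median of all signals was 143.6. Fresh CD4 cells had 651.9 to 1466.6 and fresh CD8 cells 1484.9 to 2692.8. The part of this starting level in the difference was not tested.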

How the results depend on the processing

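The Cxcr3 falls in the 3 CD8 cultures, the Cxcr6 falls in CD8 cells with IL-2 and IL-2/IL-4, and the lower Cxcr6 of fresh B cells kept their direction and call under every alternative run. Where a call changed, the cause was not tested. With a pseudocount of 1, Cxcr3 in CD4 IL-2/IL-4 against fresh was -1.85 (adjusted p = 0.0732), Ccr2 in CD4 IL-2 was -1.83 (0.105) and Ccr2 in CD8 against CD4 IL-2/IL-4 was -2.75 (0.0333). With 64, values were -1.64 (0.0471) for Cxcr3 in CD8 against CD4 IL-2, -1.31 (0.0503) for Cxcr3 in cultured B against CD4 IL-2/IL-4, -1.22 (0.0278) for Ccr2 in CD4 IL-2/IL-12 and -1.0 (0.0759) in CD8 IL-2/IL-4 against fresh, -1.59 (0.0213) for Ccr2 in CD8 against CD4 fresh, and -0.84 (0.135) in cultured B against CD4 IL-2/IL-4. There the B minus CD8 difference of Cxcr3 was 2.13 (0.0414), and the CD8 minus CD4 difference of Cxcr6 with IL-2 was -1.73 (0.0255), or -1.85 (0.0321) without the dimmest 40% of probe sets. Median centring gave -1.36 for Cxcr3 in CD4 IL-2/IL-4, -1.47 for Ccr2 in CD4 IL-2, -1.67 for Ccr2 in CD8 IL-2/IL-4 and 1.72 for the B minus CD4 difference of Cxcr6, none past the threshold. Quantile normalization gave -1.67, -1.45 and -1.86 for the first 3 of these and -1.83 for Ccr2 in cultured B against CD4 IL-2/IL-4, none past it.

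The scan period block ended the calls of Cxcr3 in CD4 IL-2/IL-4 (-1.91) and in cultured B against CD4 IL-2/IL-4 (-1.76), and of Ccr2 in CD4 IL-2 (-1.95) and in cultured B against CD4 IL-2/IL-4 (-1.32). No CD4 culture shared a scan day with the fresh CD4 arrays, so a scan day block links them only through other cell types. The scan day block turned Cxcr3 in CD4 IL-2/IL-4 to 0.87, and the uncalled Cxcr3 changes in CD4 IL-2 and IL-2/IL-12 to 1.27 and 1.17. It ended the calls of Cxcr3 in fresh B against CD4 (-2.03), Ccr2 in CD4 IL-2 (-2.40), in CD4 IL-2/IL-4 (-3.01) and in cultured B against CD4 (-1.0), Cxcr6 in CD4 IL-2/IL-4 (-1.74), Cxcr6 in CD8 IL-2/IL-12 against IL-2 (1.93) and against IL-2/IL-4 (2.28), and the B minus CD4 difference of Cxcr6 (1.93). It brought past the threshold Cxcr3 in CD8 against CD4 with IL-2 (-2.33) and with IL-2/IL-12 (-2.60), and their difference of change with IL-2 (-5.09). Scan day as a random block gave -1.70 (0.0556) for Cxcr3 in CD4 IL-2/IL-4. Fits of the compared groups alone ended the calls of Cxcr3 in CD4 IL-2/IL-4 (-1.79), fresh B against CD4 (-2.38) and cultured B against CD4 (-1.87), of Ccr2 in CD4 IL-2 (-1.70) and CD8 IL-2/IL-4 (-1.88), of Cxcr6 in CD8 IL-2/IL-12 against IL-2 (1.94), and of its B minus CD4 difference (2.16), while Ccr2 in CD8 against CD4 IL-2/IL-4 passed (-1.70, 0.0234). The other Ccr2 probe set ended the calls in CD4 IL-2 (-0.87), CD4 IL-2/IL-4 (-1.68), CD8 IL-2/IL-4 (-1.57) and B cells (-0.49), and gave 0.68 in cultured B against CD4 IL-2/IL-4. In CD8 against CD4 fresh it gave -0.39, without a call. With the 3'/5' covariate Ccr2 in CD4 IL-2/IL-12 (-2.52), Ccr2 in CD8 against CD4 fresh (-2.66) and Cxcr6 in CD4 IL-2 (-1.49) passed. That covariate rests mostly on the array CD4 fresh letter C. With the crossed-code arrays exchanged Ccr2 in CD8 IL-2/IL-4 (-1.20) and Cxcr6 in CD8 IL-2/IL-12 against IL-2 (1.39) and IL-2/IL-4 (1.0) did not pass.

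Whether title letters pair the samples is unsettled. Correlations of same-letter deviations ran from -0.111 to 0.358. No comparison with 3 shared letters had all of them above 0.1, while both pairs did in cultured against fresh B cells (0.163 and 0.172) and in CD8 IL-2/IL-12 against IL-2 (0.11 and 0.122). With the replicate block Ccr2 in CD8 against CD4 fresh passed (-2.09, 0.0466) and Cxcr6 in CD8 IL-2/IL-12 against IL-2 did not (1.73, 0.164). Leaving out single arrays kept 613 of 648 values on their side of the threshold, but most of the 648 belong to comparisons that had not passed. Of the rest, 29 lost a call and 6 gained one. Values ranged from -2.32 to -1.49 for Cxcr3 in CD4 IL-2/IL-4, -2.18 to -0.59 in B cells, -2.91 to -2.07 in fresh B against CD4 and -2.77 to -1.18 in cultured B against CD4 IL-2/IL-4. For Ccr2 they were -2.11 to -1.37 in CD4 IL-2, -1.98 to -0.86 in CD4 IL-2/IL-12, -2.48 to -1.31 in CD8 IL-2/IL-4, -2.66 to -1.49 in CD8 against CD4 fresh and -1.91 to -1.51 in cultured B against CD4 IL-2/IL-4. For Cxcr6 they were 1.66 to 2.15 in CD8 IL-2/IL-12 against IL-2 and -2.09 to -1.52 for the CD8 minus CD4 difference with IL-2. Without detection calls, Ccr2 signals near the bottom of the table cannot be told from background. The brighter Ccr2 probe set was itself among the dimmest 40%, so leaving these out gave no Ccr2 value.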
